A study of Mus musculus with 16 samples.

Results

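The genes described are 8 that colon epithelium is known to switch on during repair or to share with fetal gut: Anxa1, Anxa3, Clu, Msln, Sprr1a, Cldn4, Ctgf and Cyr61. They were chosen by name, and each was read from its row in a table of 16 Affymetrix arrays of mouse proximal colon mucosa. All 8 were among the 30751 genes tested. Cyr61 is held under its current symbol Ccn1, and Ctgf, now Ccn2, under its old one.

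All mice were males on a C57BL/6J background, homozygous for a floxed Mcc gene (Mccf/f). Mcc is a gene named for mutations in colorectal cancer. The knockout (KO) mice, VILcreMccf/f or MccΔIEC, also carried a Villin-cre transgene, which is active in intestinal epithelium and leaves Mcc in the other cells of the mucosa. Siblings with the floxed gene but without Cre are the wild type (WT). Starting at an age of 6 weeks, the mice ate control feed or, for the same 10 weeks, a diet with sulindac at 320 ppm. Sulindac is an anti-inflammatory drug that blocks cyclooxygenases. From sulindac-fed mice mucosa was taken at inflamed areas alone, called lesions here, and from control-fed mice at the matching normal site. There were 6 WT control, 3 WT lesion, 3 KO control and 4 KO lesion arrays. No array of uninflamed mucosa from sulindac-fed mice was used here, so the drug and the choice of inflamed tissue cannot be told apart.

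When colon epithelium is damaged, cells at the wound edge lose genes of the resting crypt and take on genes that are normally active in fetal gut. The transcription coactivator YAP, which acts with DNA-binding TEAD factors when cells are stretched or lose their neighbours, is known as a driver of that switch. Annexins and claudins act at membranes and junctions, small proline-rich proteins stiffen stressed epithelia, and the CCN proteins Cyr61 and Ctgf are secreted into the matrix and are textbook YAP targets.

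Promoters of 4 members are held in the RefSeq promoter table of the build GRCm38.p6, and those of Anxa3, Clu, Msln and Ctgf are named only. The 4 are those the table holds, and they are also the members with the largest differences between lesions and controls. TEAD and AP-1, the factors looked for, are known to act together on YAP target genes. Each run is the 250 bases before the gene's start, read 5′ to 3′ along the gene, and all 4 genes lie on the minus strand. Capitals mark a TEAD motif (GGAATG, both strands searched) or an AP-1 motif (TGANTCA, which reads the same on both strands). The motifs share no bases in these runs.
Sprr1a, chr3:92485882-92486131: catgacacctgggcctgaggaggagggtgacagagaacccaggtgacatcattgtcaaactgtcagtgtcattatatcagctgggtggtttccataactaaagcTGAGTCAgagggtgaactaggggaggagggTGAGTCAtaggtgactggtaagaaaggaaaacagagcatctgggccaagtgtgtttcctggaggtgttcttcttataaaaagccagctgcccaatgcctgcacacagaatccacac
Cldn4, chr5:134946935-134947184: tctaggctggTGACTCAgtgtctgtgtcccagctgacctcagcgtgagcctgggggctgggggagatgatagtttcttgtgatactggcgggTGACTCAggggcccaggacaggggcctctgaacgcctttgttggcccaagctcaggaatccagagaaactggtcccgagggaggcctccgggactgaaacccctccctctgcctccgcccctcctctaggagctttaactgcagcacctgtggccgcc
Anxa1, chr19:20390672-20390921: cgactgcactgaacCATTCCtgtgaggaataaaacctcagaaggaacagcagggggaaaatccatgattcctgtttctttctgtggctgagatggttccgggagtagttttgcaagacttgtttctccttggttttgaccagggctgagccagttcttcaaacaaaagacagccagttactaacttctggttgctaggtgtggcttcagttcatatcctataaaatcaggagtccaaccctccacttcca
Cyr61, chr3:145649986-145650235: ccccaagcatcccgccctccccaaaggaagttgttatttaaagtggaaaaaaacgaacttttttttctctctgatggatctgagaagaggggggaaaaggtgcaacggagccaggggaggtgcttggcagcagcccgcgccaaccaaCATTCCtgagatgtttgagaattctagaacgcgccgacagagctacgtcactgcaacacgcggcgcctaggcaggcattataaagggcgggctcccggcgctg

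Sprr1a and Cldn4 each held 2 AP-1 matches and no TEAD match. In Sprr1a they lay 146 to 140 and 116 to 110 bases before the start. In Cldn4 they lay 240 to 234 and 158 to 152 bases before it. Anxa1 and Cyr61 each held 1 TEAD match and no AP-1 match, at 236 to 231 bases in Anxa1 and at 103 to 98 bases in Cyr61. Of the 32851 promoters of the same length in the table, 12.64% held the TEAD letters and 6.75% the AP-1 letters. A match is a description of the letters and was not tested as a site of binding.

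**Figure D1:**
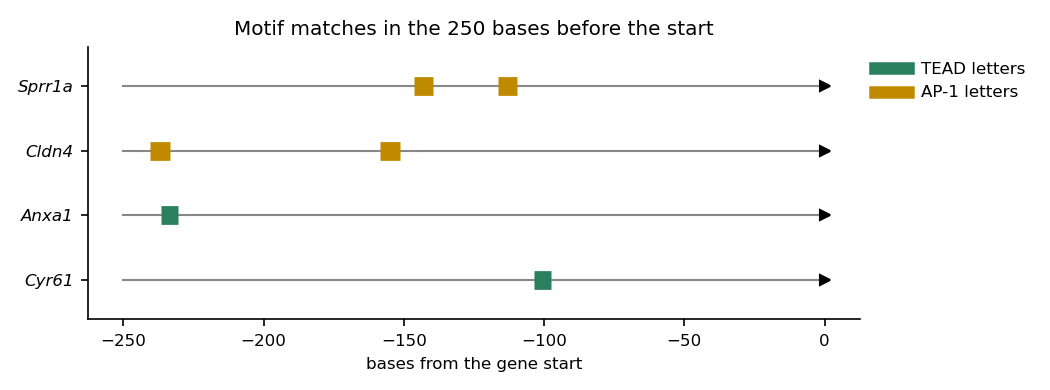
Matches to the AP-1 and TEAD letters in the 250 bases before the start of 4 members, with distance from the start in bases on the horizontal axis and 1 line per gene. Sprr1a and Cldn4 hold 2 AP-1 matches each, and Anxa1 and Cyr61 hold 1 TEAD match each.

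The values are log2 expression, so a difference of 1 is a doubling, and array medians over all rows lay between 4.90 and 5.05. A level of one gene cannot be set against that of another on this scale, and values near the array medians are compressed towards background. A gene was called where its adjusted p was under 0.05 after Benjamini-Hochberg adjustment over all 30751 genes in limma's moderated test. The highest KO array lay below the lowest WT array for Mcc itself, and its difference was -0.60 (SE 0.08, adjusted p = 0.0832) on the control diet and -0.79 (SE 0.09, adjusted p = 0.00321) in lesions. Nothing in the labels says that the arrays come from separate animals, so the p-values measure the spread between these samples.

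In WT lesions 6 of the 8 members measured rose and none fell, with a median difference of 1.09 against -0.06 for all genes. Among all genes 6.96% were called higher and 8.36% lower in this comparison. Sprr1a, Anxa1, Cyr61 and Cldn4 rose by at least 2-fold, which 1.74% of all genes did. The 6 members that rose were also those in which every lesion array lay above every control array, a pattern seen in 8.12% of all genes. In KO lesions 7 of 8 rose and none fell, with a median of 1.58 against 0.01 for all genes, of which 8.95% were called higher and 12.1% lower. The same 4 members passed 2-fold, as did 2.34% of all genes. Lesion and control arrays did not overlap for 6 members, all those that rose except Clu, and every lesion array lay above every control array in 12.6% of all genes.

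**Figure D2:**
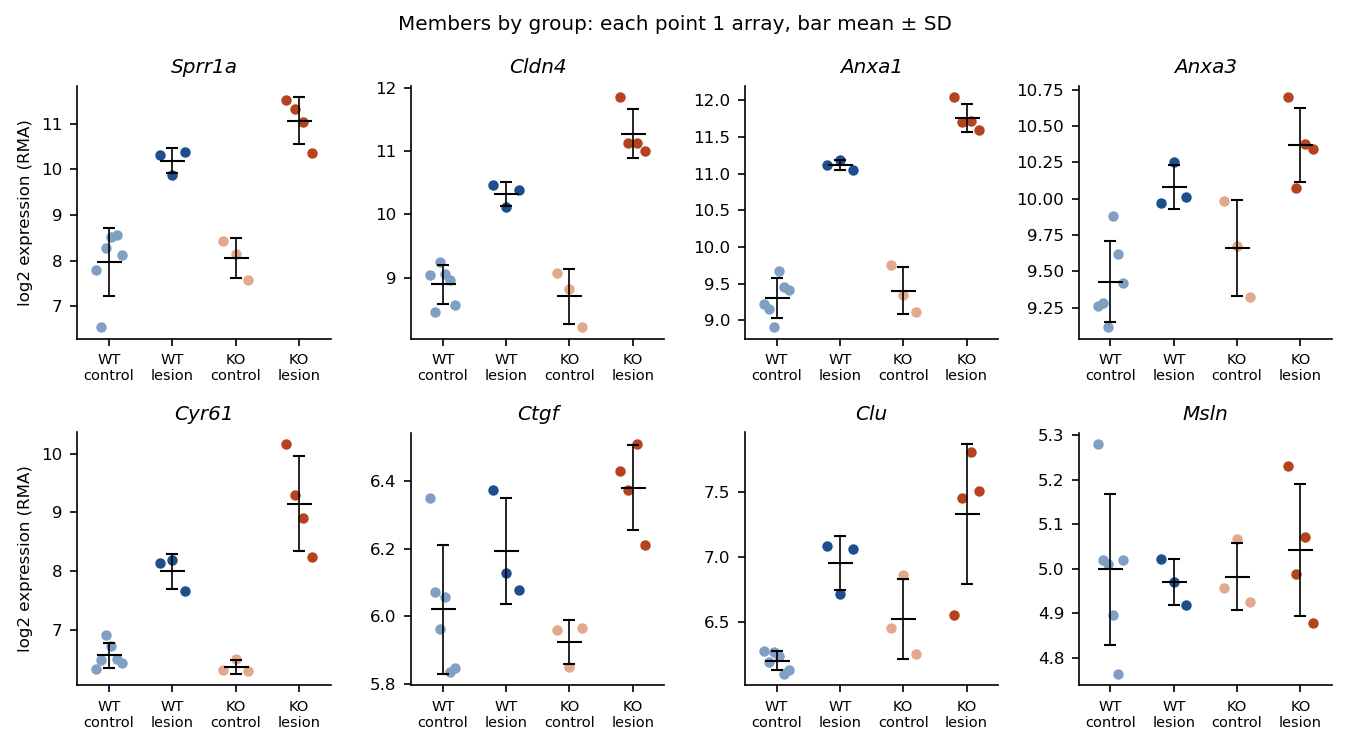
Log2 expression of the 8 members measured (vertical axis, own scale per gene) in the 4 groups, with 1 point per array and the group mean ± SD as a bar. Lesion arrays stand above control arrays of the same genotype for Sprr1a, Cldn4, Anxa1, Anxa3 and Cyr61, while the Msln groups overlap.

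Sprr1a encodes a cross-linked envelope protein of stratified epithelia that simple epithelia make under stress. Its log2 level in WT controls ran from 6.55 through a median of 8.20 to 8.57, and in WT lesions it was 10.32, 9.88 and 10.38. KO controls were at 8.43, 8.14 and 7.57, and KO lesions at 11.53, 11.33, 11.04 and 10.36. Every lesion array stood above every control array, and the widest spread was among the WT controls, where 1 array lay 1.25 below the next. The difference was 2.22 in WT (SE 0.37, 4.66-fold, adjusted p = 0.000652) and 3.01 in KO (SE 0.40, 8.08-fold, adjusted p = 6.27e-05).

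Cldn4 encodes claudin 4, a tight junction protein. WT controls ran from 8.47 through a median of 9.01 to 9.26, against 10.46, 10.11 and 10.38 in WT lesions. In KO controls the levels were 9.07, 8.83 and 8.22, and in KO lesions 11.84, 11.13, 11.12 and 11.0002. The groups of either genotype did not overlap, and the first KO lesion array stood apart above the other 3. The rise was 1.42 in WT (SE 0.22, 2.68-fold, adjusted p = 0.000291) and 2.57 in KO (SE 0.23, 5.93-fold, adjusted p = 1.72e-06).

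Anxa1 encodes annexin A1, a phospholipid-binding protein known for its part in the resolution of inflammation and in wound closure. Its level was 8.91 to 9.68 in WT controls, with a median of 9.31, and 11.12, 11.18 and 11.04 in WT lesions. The KO controls were at 9.75, 9.35 and 9.11 and the KO lesions at 12.04, 11.71, 11.71 and 11.59. WT lesions lay within 0.14 of each other, and the lowest lesion array stood 1.37 above the highest control array in WT and 1.84 above it in KO. The differences were 1.81 (SE 0.16, 3.52-fold, adjusted p = 1.62e-06) in WT and 2.36 (SE 0.17, 5.13-fold, adjusted p = 1.79e-07) in KO.

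Anxa3 encodes annexin A3, a marker of the fetal-like state in regenerating crypts. WT controls spread from 9.12 through 9.35 to 9.88, and WT lesions were at 9.97, 10.26 and 10.01. KO controls lay at 9.98, 9.68 and 9.33 and KO lesions at 10.70, 10.08, 10.38 and 10.34. The groups met closely, with 0.09 between the lowest lesion and the highest control array in each genotype. The rise was 0.65 in WT (SE 0.17, 1.57-fold, adjusted p = 0.0166) and 0.71 in KO (SE 0.19, 1.64-fold, adjusted p = 0.0116). The call was lost in WT without lesion array 2 (0.56, adjusted p = 0.0946) and in KO without control array 3 (0.54, adjusted p = 0.0643), and the KO difference was 1.13 with the series of sample numbers described below as a covariate.

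Cyr61 encodes a secreted matrix protein that YAP induces directly. Its level was 6.33 to 6.90 in WT controls with a median of 6.49, and 8.14, 8.19 and 7.65 in WT lesions. It lay at 6.31, 6.50 and 6.30 in KO controls and at 10.16, 9.30, 8.90 and 8.23 in KO lesions. Each KO lesion array stood above all WT lesion arrays, by 0.04 at the narrowest, and the 4 KO lesions spread over 1.93 on the log2 scale. The difference was 1.43 in WT (SE 0.28, 2.70-fold, adjusted p = 0.00234) and 2.78 in KO (SE 0.30, 6.87-fold, adjusted p = 1.14e-05).

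Ctgf encodes connective tissue growth factor, the other CCN protein of the list and also a direct YAP target. WT controls ran from 5.83 through 6.01 to 6.35, and WT lesions were at 6.37, 6.13 and 6.08. The WT groups overlapped, and the difference of 0.17 was not called (95% interval -0.05 to 0.40, adjusted p = 0.309). In KO controls the level was 5.96, 5.85 and 5.96 and in KO lesions 6.43, 6.37, 6.51 and 6.21, with no overlap. There it rose by 0.46 (SE 0.11, 1.37-fold, adjusted p = 0.00882), a call that was lost with the number series as a covariate (0.24, adjusted p = 0.479).

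Clu encodes clusterin, a secreted chaperone that marks rare cells which rebuild the crypt after damage. It was between 6.10 and 6.27 in WT controls, with a median of 6.21, and at 7.08, 6.71 and 7.06 in WT lesions. KO controls were at 6.45, 6.86 and 6.25 and KO lesions at 6.55, 7.45, 7.80 and 7.51. WT groups did not overlap, while the first KO lesion array lay below the second KO control array. The difference was 0.75 in WT (SE 0.20, 1.68-fold, adjusted p = 0.018) and 0.81 in KO (SE 0.22, 1.75-fold, adjusted p = 0.0138). Both calls were lost under some alternatives, in which the difference stayed near its size. In WT it was 0.71 with the number series as a covariate (adjusted p = 0.0658), 0.69 without lesion array 1 (adjusted p = 0.0743) and 0.69 without lesion array 3 (adjusted p = 0.0854). In KO it was 0.72 with that covariate (adjusted p = 0.247), 0.81 with the KO arrays fitted alone (adjusted p = 0.109), 0.77 without control array 1 (adjusted p = 0.0558) and 0.68 without control array 3 (adjusted p = 0.0635).

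Msln encodes mesothelin, a surface protein of the lining of body cavities that damaged gut epithelium can also make. WT controls ran from 4.76 through 5.01 to 5.28, and WT lesions were at 5.02, 4.97 and 4.92. KO controls were at 4.96, 5.07 and 4.92 and KO lesions at 5.23, 4.99, 5.07 and 4.88. All groups overlapped at the level of the array medians, where differences may be compressed. That level is not a floor, since some genes called higher, Il33 among them, had lower control means. The difference was -0.03 in WT (95% interval -0.23 to 0.18, adjusted p = 0.872) and 0.06 in KO (95% interval -0.16 to 0.28, adjusted p = 0.769).

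On the control diet none of the 8 members was called between KO and WT by limma, and none had an unadjusted p under 0.05, which 2.1% of all genes had. No gene at all was called in this comparison (0% of the 30751). The members' differences ran from -0.20 for Cyr61 to 0.32 for Clu, and the KO and WT control arrays overlapped for all 8. The widest 95% interval was that of Sprr1a, from -0.71 to 0.87, and differences within it remain possible. The interval is not a limit of detection, since it is not adjusted for the number of genes. Mcc itself, at -0.60 (SE 0.08), was not called here.

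Between lesions all 8 members had a higher mean in KO than in WT, as did 18442 of the 30751 genes, and none was called. The median difference was 0.51 for the members and 0.04 for all genes. The KO lesions here were 4 arrays and the WT lesions 3, and these arrays also enter both sulindac responses above. Cyr61 differed by 1.15 (95% interval 0.50 to 1.80, adjusted p = 0.134), Cldn4 by 0.96 (0.46 to 1.45, adjusted p = 0.103) and Anxa1 by 0.65 (0.29 to 1.01, adjusted p = 0.129). For these 3, every KO lesion array stood above every WT lesion array, as it did for 5.48% of all genes. Sprr1a differed by 0.87 (0.02 to 1.72, adjusted p = 0.363), with 1 KO array at the level of the WT arrays. With Sprr1a, 4 members had an unadjusted p under 0.05, which 13.4% of all genes had. Only 94 genes were called, or 0.306% of those tested, and that number moved between 4 and 1685 as single arrays were left out. Without KO lesion array 3, Cldn4 (1.01, adjusted p = 0.0332) and Cyr61 (1.23, adjusted p = 0.043) were called, and without KO lesion array 4 Cyr61 was (1.46, adjusted p = 0.0352). Without KO lesion array 1, the highest for both, the difference was smaller, at 0.81 for Cyr61 (adjusted p = 0.237) and 0.77 for Cldn4 (adjusted p = 0.252). Clu, Anxa3, Ctgf and Msln differed by 0.38, 0.29, 0.19 and 0.07, with overlapping arrays and adjusted p from 0.466 to 0.757. Lesion arrays with the same replicate number deviated together, with correlations of 0.46, 0.30 and 0.54 over all genes. With the replicate number as a block, 2 genes in place of 94 were called and still none of the members. That block was fitted over the arrays of all groups, controls included, where the numbers were not read as pairing. The drop is therefore not a test of paired lesions alone.

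The difference between the KO and the WT response, tested as an interaction, called none of the members. It was 1.35 for Cyr61 (95% interval 0.46 to 2.23, adjusted p = 0.407), 1.15 for Cldn4 (0.47 to 1.82, adjusted p = 0.396) and 0.54 for Anxa1 (0.06 to 1.03, adjusted p = 0.422). These 3 had an unadjusted p under 0.05, as did 11.1% of all genes, and 1 gene of the 30751 (0.00325%) was called. For Sprr1a the interaction was 0.79 (95% interval -0.37 to 1.96, adjusted p = 0.542). Anxa3 and Clu had nearly equal responses in both genotypes, with interactions of 0.06 each and intervals of -0.48 to 0.60 for Anxa3 and -0.57 to 0.69 for Clu.

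**Figure D3:**
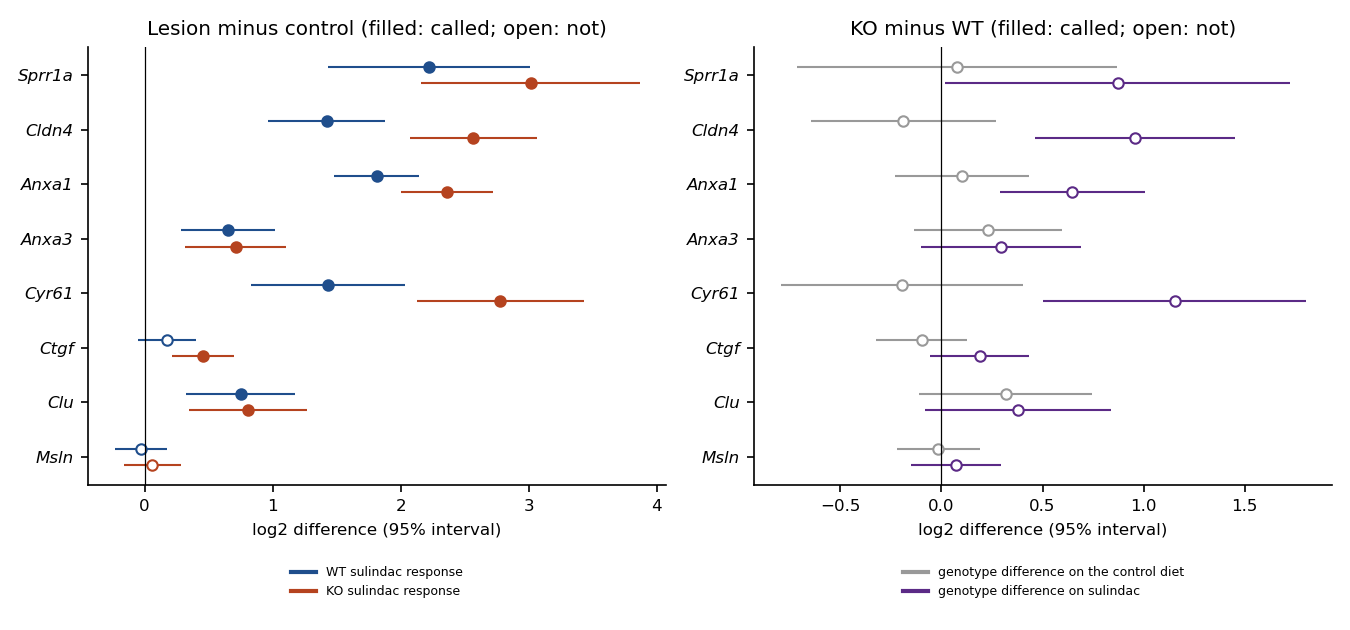
Log2 differences (horizontal axis) with 95% intervals for the 8 members, lesion minus control of each genotype on the left and KO minus WT on each diet on the right, filled where called. In the left panel the KO estimate lies to the right of the WT estimate for every member, as it does for 19034 of all 30751 genes. No interaction of a member was called, and in the right panel no difference is called.

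The numbers in the sample descriptions fall in a lower and a higher series. WT controls hold 3 of each, KO controls only the higher, and all lesions the lower, so that only the WT controls link the series in the KO response. Within the lower series, the WT response was 2.02 for Anxa1, 2.65 for Sprr1a, 1.40 for Cldn4, 1.42 for Cyr61, 0.86 for Anxa3 and 0.71 for Clu, all 6 called as before. With the series as a covariate the KO response kept 5 calls: Sprr1a (3.88), Anxa1 (2.78), Cyr61 (2.76), Cldn4 (2.51) and Anxa3 (1.13). What the series stands for is not given in the sources used here.

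Members did not vary alike within groups. The first KO lesion array was the highest of its group for Anxa1, Anxa3, Msln, Sprr1a, Cldn4 and Cyr61 and the lowest for Clu. It lay above its group's mean for 7 of 8 members, while the fourth KO lesion array did so for 1 of 8. The mean deviation over the members was 0.26 in the first and -0.28 in the fourth. Over all 16 arrays, deviations from the group means were related to the members' mean deviation with Pearson's r of 0.86 for Cldn4, 0.85 for Sprr1a, 0.68 for Anxa1, 0.66 for Cyr61, 0.61 for Anxa3, 0.29 for Msln, 0.22 for Ctgf and -0.20 for Clu. These are descriptions, since each member is part of the mean and the arrays share their group. The 5 genes whose deviations followed the members' mean most closely were Elovl1 (r = 0.94), Fosl1 (0.93), Sema3b (0.93), Prss32 (0.93) and Usb1 (0.93), over the same 16 arrays, with Spearman's rho from 0.82 to 0.91. The 5 were picked as the highest of the tested genes, so their r values are raised by that choice. Fosl1 encodes an AP-1 subunit and Elovl1 an enzyme that lengthens fatty acids. A link of Fosl1 to the AP-1 matches above was not tested.

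Relatives of the members were read beside them. Of the 12 annexins 11 were measured, Anxa1 and Anxa3 included, and in each genotype 6 rose and 1 fell. Among all genes 6.96% were called higher and 8.36% lower in WT, and 8.95% higher and 12.1% lower in KO. Anxa8 rose by 2.29 in WT (adjusted p = 3.22e-05) and 2.43 in KO (adjusted p = 2.48e-05), a larger difference than those of Anxa5 (1.11 and 1.54), Anxa6 (0.94 and 1.17) and Anxa2 (0.93 and 1.18). Anxa13, an annexin of intestinal epithelium, fell by 1.37 in WT (adjusted p = 0.00384) and by 1.71 in KO (adjusted p = 0.000896). Anxa4, Anxa7, Anxa9 and Anxa10 were not called in either. The annexins moved in both directions, with a median difference of 0.65 in WT and 0.71 in KO.

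The CCN family of 6 was measured whole. In WT Cyr61 rose and Ccn3 fell. In KO Cyr61, Ctgf and Ccn4 (0.37, adjusted p = 0.00437) rose and Ccn3 fell. Ccn3, a matrix protein known for effects opposite to those of Ctgf, fell by 2.73 in WT (SE 0.47, adjusted p = 0.000863), from a group mean of 11.15 to 8.42, and by 3.18 in KO (SE 0.51, adjusted p = 0.000313), from 10.97 to 7.79. The Ccn4 call was lost with the number series as a covariate (0.24, adjusted p = 0.292). Epcam, a marker of epithelium, was not called (0.06, adjusted p = 0.516, and 0.17, adjusted p = 0.056).

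Small proline-rich genes lie in a cluster of near-identical copies, so their rows may share signal. Of 16 listed, 13 were measured, and 2 rose in WT and 7 in KO, Sprr1a among them. The corresponding shares of all genes called higher were 6.96% and 8.95%. Sprr2h rose by 1.47 in WT (adjusted p = 0.00305) and 2.75 in KO (adjusted p = 2.28e-05). The next largest rise in KO was that of Sprr2f (0.65, adjusted p = 0.00635), whose controls lay under the array medians and whose call was lost with the number series as a covariate (0.43, adjusted p = 0.332).

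Other YAP and TEAD targets gave a mixed picture. Of 22, all measured, 8 rose in WT and 11 in KO and none fell, with medians of 0.09 and 0.42. The shares of all genes called higher were 6.96% in WT and 8.95% in KO. F3, which encodes tissue factor, the starter of coagulation, rose most, by 3.49 in WT (11.2-fold, adjusted p = 1.05e-08) and 4.28 in KO (19.4-fold, adjusted p = 1.89e-09). Myof (1.35 and 1.53) and Dock5 (1.02 and 1.29) followed. With the number series as a covariate 4 of the 22 were called in KO. F3 was the one target called between lesions (0.97, adjusted p = 0.0457), where 0.306% of all genes were called. The F3 call was lost at a difference of nearly the same size with the replicate block (0.95, adjusted p = 0.167) and without any one of the WT lesion arrays (0.94 to 1.0035, adjusted p from 0.124 to 0.19).

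Of 16 components of the YAP pathway 15 were measured, and 2 rose in WT and 3 in KO, against 6.96% and 8.95% of all genes. Tead4 rose by 0.61 and 1.04 and Tead1 by 0.46 and 0.63, both encoding the DNA-binding partners. Wwtr1, which encodes the YAP relative TAZ, rose by 0.60 in KO (adjusted p = 0.00117) but not with the number series as a covariate (0.40, adjusted p = 0.154). Yap1 itself, named here after its values were seen, was not called (0.14, adjusted p = 0.318, in WT and 0.08, adjusted p = 0.66, in KO). YAP acts through its place in the cell, which RNA levels do not measure.

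A list of 30 further genes of fetal-like or wounded epithelium had 24 measured. Of these 16 rose in WT and 20 in KO and none fell, with medians of 0.74 and 1.11. Among all genes 6.96% were called higher in WT and 8.95% in KO. Ptgs2, the inducible cyclooxygenase and a target of sulindac, rose by 5.26 in WT (adjusted p = 2.13e-07) and 6.21 in KO (adjusted p = 6.66e-08). Ly6c1 rose by 3.57 and 3.62. Il33, an alarm cytokine, rose by 2.43 and 3.77, from control levels under the array medians, where differences may be compressed. Between lesions all 24 had a higher mean in KO, as did 18442 of the 30751 genes, and none of the 24 was called. An unadjusted p under 0.05 was found for 10 of the 24 and for 13.4% of all genes. Several genes of this list are also made by immune or stromal cells.

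Genes of the resting crypt's stem cells were read as a contrast. Of 15, 13 were measured: 3 fell in WT and none rose, and 5 fell and 1 rose in KO, with medians of -0.21 and -0.52. Of all genes 8.36% were called lower in WT and 12.1% in KO. Axin2 (-0.49, adjusted p = 0.0101) and Tnfrsf19 (-0.33, adjusted p = 0.00608) had the lowest values among those called in WT. The Axin2 call was lost without WT lesion array 2 (-0.38, adjusted p = 0.081), and that of Tnfrsf19 with the mean of all its rows (-0.20, adjusted p = 0.129). In KO these were Lrig1 (-1.05, adjusted p = 0.00166) and Lgr5 (-1.02, adjusted p = 0.00112), the receptor that marks crypt base stem cells. Lgr5 was at -0.49 in WT and was not called (adjusted p = 0.078). Prom1 rose in KO (0.69, adjusted p = 0.00265), a call lost with the number series as a covariate (0.35, adjusted p = 0.341).

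**Figure D4:**
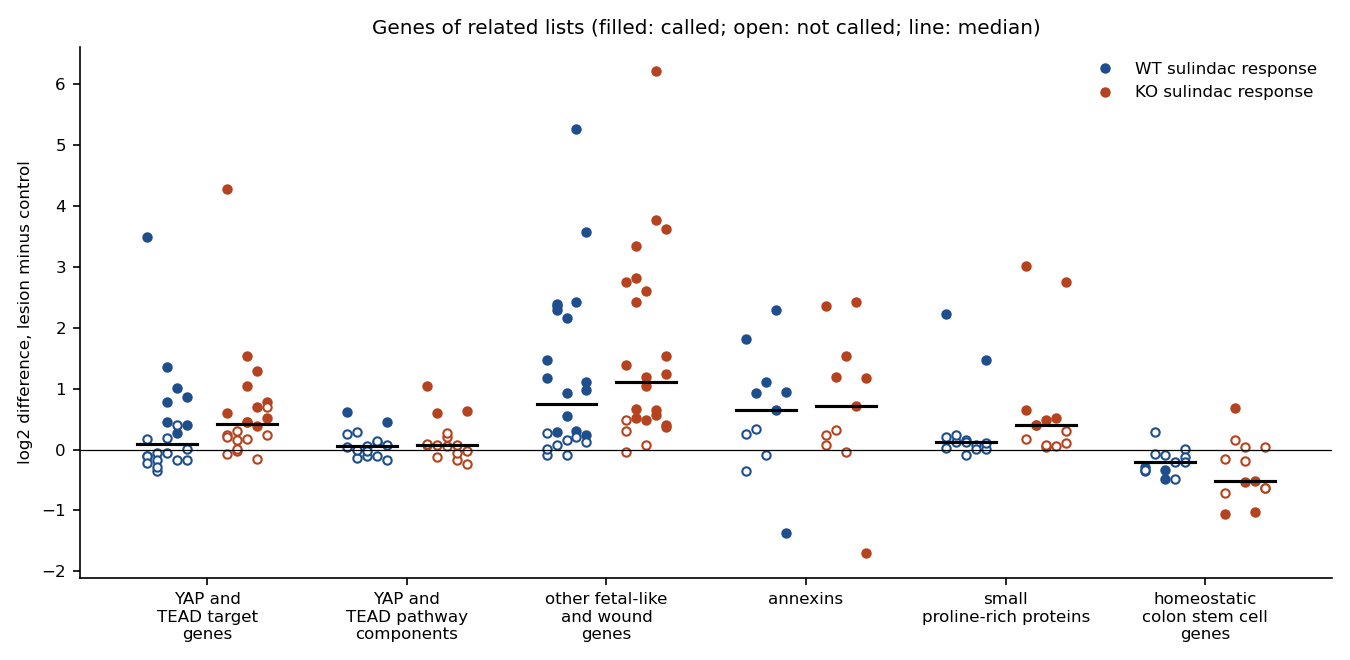
Log2 difference of lesion minus control (vertical axis) for each measured gene of 6 related lists, WT and KO beside each other, filled where called and with a line at the median. The fetal-like and wound list and the annexins lie mostly above 0, YAP and TEAD targets have medians of 0.09 and 0.42, and the stem cell genes have medians of -0.21 and -0.52.

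The mucosa was analysed whole, so the makeup of cells is part of each value, and fewer cells of a type cannot be told apart from less RNA per cell. Epithelial markers were present in every array. Their summed log2 level was 14.96 to 15.11 in WT controls, 15.11 to 15.16 in WT lesions, 14.94 to 15.06 in KO controls and 15.15 to 15.34 in KO lesions. In each genotype this sum was higher in every lesion array than in every control array, a pattern of 8.12% of all genes in WT and 12.6% in KO. Krt20, Krt8, Krt19 and Epcam held the highest values of this list and so weigh most in the sums. Of the 12 markers 1 rose and 1 fell in WT, and 5 rose and 3 fell in KO. Among all genes 6.96% were called higher and 8.36% lower in WT, and 8.95% higher and 12.1% lower in KO. Krt20, a keratin of surface colonocytes, rose by 0.28 and 0.43, while the intestinal identity factor Cdx2 fell by 0.36 and 0.64. Cdx1 had the largest fall of the list in KO, from a group mean of 8.81 to 7.83. It was not called in WT (-0.35, adjusted p = 0.156). The WT calls of Krt20 and Cdx2 were lost without WT lesion array 2, where Krt20 was at 0.22 (adjusted p = 0.117) and Cdx2 at -0.35 (adjusted p = 0.0697). That of Cdx2 was also lost without WT lesion array 1 (-0.33, adjusted p = 0.0724), with the number series as a covariate (-0.31, adjusted p = 0.0845) and after centring (-0.31, adjusted p = 0.0972).

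Neutrophil markers rose with the members. All 10 were called higher in each genotype, with medians of 1.93 in WT and 3.46 in KO, and their summed log2 level was 8.29 to 9.27 in WT controls, 11.18 to 12.15 in WT lesions, 8.44 to 9.23 in KO controls and 12.56 to 13.67 in KO lesions. Of these markers 6 of 10 lay under the array medians in controls, S100a8 and S100a9 among them. Between lesions 4 of the 10 were called higher in KO, with a median of 1.62. Among all 30751 genes 76 were called higher there. The 94 calls of either direction fell to 2 with the replicate block and to 1 with lesions alone, so these 4 calls cannot all have held. Of the 10 monocyte and macrophage markers 9 rose in each genotype, from sums of 9.08 to 9.56 and 9.33 to 9.53 in WT and KO controls to 11.19 to 11.45 and 11.33 to 11.90 in lesions. Of 9 measured fibroblast markers 6 rose in each and 1 fell in KO. Their sums were 9.37 to 9.59 in WT controls and 10.70 to 11.17 in WT lesions. In KO controls they were 9.22 to 9.66 and in KO lesions 10.70 to 11.32. Dcn moved most among them, from a group mean of 5.94 to 9.70 in WT and from 5.98 to 10.09 in KO. It weighs heavily in the lesion sums, which add linear values. Of 8 endothelial markers 2 rose in WT and 3 in KO, from sums of 8.62 to 8.80 and 8.45 to 8.83 to 9.08 to 9.43 and 8.88 to 9.64. Lum and Fap among the fibroblast markers and Cd163 among those of macrophages lay under the array medians in all groups. Beside the counts of these lists, 6.96% of all genes were called higher in WT, and 8.95% higher and 12.1% lower in KO. The part of the listed cells in the rise of the members was not tested. Anxa1 is also made by neutrophils and monocytes, and Clu, Ctgf and Cyr61 by stromal cells.

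Tissues that are known for single members were checked by their markers as well. Of 8 markers of mesothelium, the lining cells that mesothelin is named for, none rose and 2 fell in WT and 1 in KO. Among all genes 8.36% were called lower in WT and 12.1% in KO. The summed level of the mesothelial markers was 8.12 to 8.23 in WT controls and 7.94 to 8.07 in WT lesions. It was 8.07 to 8.14 in KO controls and 7.98 to 8.18 in KO lesions. Lrrn4, Gpm6a and Muc16 were under the array medians in all 4 groups. Of 12 squamous epithelium markers, from the tissue best known for Sprr1a, 11 were measured. None of the 11 was called in WT and 4 rose in KO, with Krt13 (0.82) and Serpinb5 (0.57) the largest. The share of all genes called higher in KO was 8.95%. Krt13 was the one squamous marker called higher in KO than in WT lesions (0.50, adjusted p = 0.0459), and 10 of the 11 had a higher mean there. Of all 30751 genes, 76 were called higher and 18442 had a higher mean in that comparison. The Krt13 call was lost with the replicate block (0.52, adjusted p = 0.144) and without any one of the WT lesion arrays (0.49 to 0.51, adjusted p from 0.129 to 0.205). The squamous sums were 10.01 to 10.33 in WT controls and 10.37 to 10.57 in WT lesions. In KO controls they were 9.99 to 10.20 and in KO lesions 10.34 to 10.80. Serpinb5 held the highest values of this list, with group means from 9.48 to 10.06, and so weighs most in these sums. Trp63, Dsg3 and Sprr3 lay under the array medians in every group. None of 8 smooth muscle markers was called in either genotype, with sums of 9.25 to 10.35, 9.69 to 9.88, 9.30 to 9.84 and 9.34 to 10.18 in WT controls, WT lesions, KO controls and KO lesions.

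**Figure D5:**
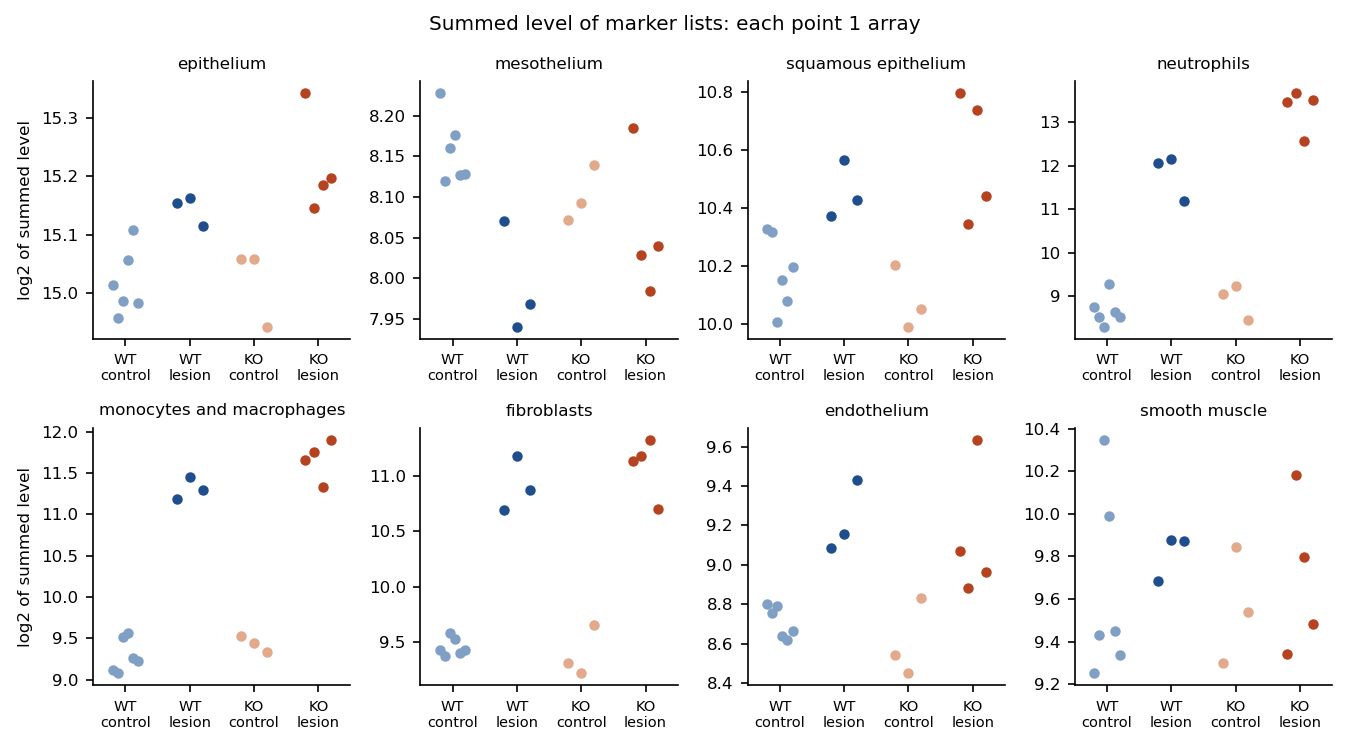
Log2 of the summed level of 8 marker lists (vertical axis, own scale per list) in the 4 groups, with 1 point per array. Neutrophil, macrophage, fibroblast, endothelial, squamous and epithelial sums are higher in every lesion array than in every control array of the same genotype. Of all genes 8.12% had this pattern in WT and 12.6% in KO. Neutrophil sums are higher in the KO than in the WT lesions. Mesothelial sums are lower in WT lesions and overlap between KO groups, and smooth muscle sums overlap in both genotypes.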

How the data were processed

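The authors deposited log2 expression values in 1 table, made with RMA and Affymetrix Power Tools 1.16.1, per the submitters' processing notes. RMA removes background, gives all arrays the same distribution and combines the probes of a row, and it compresses differences of dim genes. The genome build of the arrays' annotation is not given in the sources used here. Of 72688 rows, 32750 were listed in the platform's probe-to-gene table, 31230 with 1 symbol and 1520 with several. Symbols were updated through the RefSeq gene table of GRCm38.p6 (822 changed), and the row with the highest mean was kept for the 368 genes with more than 1 row. Each member had 1 row, and 1 further gene of the choice is not reported here. Within groups, arrays correlated at 0.98 to 0.991 and shared at most 0.0289% of values, so none was a duplicate. No column was left out.

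Groups were taken from the titles. A fit of 4 group means over all 16 arrays was made with limma 3.58.1 (R 4.3.3), with empirical Bayes moderation, two-sided, and Benjamini-Hochberg adjustment over 30751 genes. The procedure was tested on simulated data. The number of arrays limits the precision. The members, the lists and the tests were chosen with earlier results of these data known. Named genes were all members, up to 3 called genes with the largest rise and 2 with the largest fall per list and response, the annexin and CCN relatives, Epcam, defining cell markers and the 5 genes most like the members (Gm and Rik names left out). Marker sums add linear values and give their log2.

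Replicate numbers were checked for pairing by the correlation of deviations: 0.35, 0.17 and 0.0971 between WT controls and WT lesions, -0.15, -0.17 and -0.30 between KO controls and KO lesions, -0.32, -0.34 and -0.24 between controls, and 0.46, 0.30 and 0.54 between lesions. Only the last exceeded 0.1 in every pair, so that only there were the numbers read as pairing the arrays. The block on replicate number was nevertheless fitted over the arrays of all groups, controls included. The alternatives were this block, the number series as covariate, as random block or held to 1 series, only the groups compared, robust moderation, array weights, leaving out dim genes, centring on array medians, the mean of all rows, all rows tested together, and leaving out each array.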

Additional observations from a re-analysis of the deposited data

Results flagged for a closer look

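Cldn4 in the first KO lesion array stood apart from the other 3 of its group, at a log2 level of 11.844 against 11.13 in the nearest, a gap of 0.844 of the group's range. Chance sets apart about 1 in 20 groups in this way, and 8 members were measured in 4 groups each. In the same array Anxa1, Anxa3, Msln, Sprr1a and Cyr61 were also the highest of the group, and the summed epithelial markers were at 15.34 and the squamous markers at 10.80, the highest of the 16 arrays for each. Without that array the KO response of Cldn4 was 2.38, against 2.57 with it.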

How the results depend on the processing

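The sulindac responses of the members were computed under 422 combinations of member and alternative, of which 405 kept direction and side of the threshold, 12 lost a call (all of Anxa3, Clu or Ctgf) and 5 changed sign (all of Msln, not called). Calls ranged from 5 to 6 of 8 in WT and from 5 to 7 of 8 in KO over single arrays left out, against 6 and 7. With the replicate number as a block, 5 members were called in WT and 6 in KO. Clu was lost in both (0.74, adjusted p = 0.0962, and 0.78, adjusted p = 0.0613), and the block changed no other response call of a member. The numbers were not read as pairing lesions with controls, though the correlations in WT were 0.35, 0.17 and 0.0971. Arrays with unlike numbers were not compared, so pairing in WT is undecided, as it is between lesions.

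Between lesions 1 member was called with array weights (Cldn4, 0.85, adjusted p = 0.0429), and 0 to 2 with single arrays left out. The YAP and TEAD targets called in KO fell from 11 to 4 with the number series as a covariate, as all genes called fell from 6465 to 2508. Over the other alternatives, the 94 genes called between lesions became 58 with that covariate, 1 within 1 series or with lesions alone, 26 after centring, 5 with all rows tested and 708 with array weights. The causes were not tested. For the other genes named, 1289 of 1347 combinations kept direction and call and 58 lost a call, F3 and Krt13 between lesions most often; none changed sign.

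Signs turned only for differences that were not called (adjusted p of 0.693 or more in the fits with all arrays). With the number series as a covariate or held to 1 series, the control diet difference became -0.11 for Anxa1, 0.0888 for Msln, -0.35 for Sprr1a and 0.0109 for Ctgf. The covariate also gave -0.15 for the KO response and -0.016 for the interaction of Msln. Array weights gave -0.0024 for Msln in KO, 0.0193 for Msln on the control diet and -0.11 for the interaction of Anxa3, which was -0.14 with the replicate block. Centring gave 0.0158 for Msln in WT. With single arrays left out, the control diet difference ran from -0.0729 to 0.25 for Anxa1, -0.063 to 0.0404 for Msln, -0.21 to 0.32 for Sprr1a and -0.37 to 0.0541 for Cldn4. The interaction ran from -0.11 to 0.22 for Anxa3 and -0.10 to 0.32 for Clu, and the Msln response from -0.0759 to 0.0275 in WT and -0.0029 to 0.11 in KO. Msln could not be computed with dim genes left out, being among them, and the KO response and the interaction could not be held to 1 series. Msln signal lay near the array medians, where differences may be compressed.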
